A study of Mus musculus with 2 samples.

Results

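Mixed T cell and macrophage barcodes are droplet barcodes that carried transcripts of the T cell receptor complex and of complement C1q together. They were chosen by a sum of at least 3 unique molecular identifiers (UMIs, each a counted RNA molecule) of Cd3d, Cd3e and Cd3g and a sum of at least 5 UMIs of C1qa, C1qb and C1qc. Only barcodes with at least 1000 UMIs and under 10% mitochondrial UMIs were considered. The rule found 192 barcodes among 7642 that passed these limits, out of 10533 in all. Of the 192, 106 came from the wild-type (WT) library and 86 from the CD94-KO library, both of C57BL/6J mice. The cells were live CD45+ cells sorted from subcutaneous tumours of mice 6 to 8 weeks old, and the labels name no treatment. There was 1 library per genotype, and the series text speaks of 5 tumour-bearing mice per data set, so each library pools animals. The tumour line and the CD94-KO allele were not given in the sources used here.

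CD3 chains carry the signal of the T cell receptor and mark T cells. C1q, the recognition part of the classical complement pathway, is made in tumours mainly by macrophages, which also engulf dying cells. T cells and macrophages touch each other in tumours, and a droplet can take up a pair of cells that were attached or that entered together, or a cell with RNA of another. In such a barcode the RNA of both lineages is added. The counts used here hold no image and no second label of a cell, so whether a barcode held a pair of cells or a cell with RNA of both lineages was not tested directly. The measurements below set the mixed barcodes beside pairs of singly positive barcodes of the same library. Singly positive T barcodes met the Cd3 sum and missed the C1q sum (480 WT, 420 CD94-KO), and singly positive macrophage barcodes met the C1q sum and missed the Cd3 sum (447 and 812). The expected pair is the sum of a T and a macrophage barcode, averaged over all 214560 such pairs of the WT library and all 341040 of the CD94-KO library.

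The libraries held 5358 WT and 5175 CD94-KO barcodes with 40261366 and 46107433 UMIs, and the kept barcodes had a median of 8448 and 8519 UMIs. Under the UMI minimum lay 1618 and 496 barcodes, and at or above the mitochondrial limit 777 and 408. The libraries shared 8 barcode sequences, 5 of them kept in each library and 0 of them mixed. With 1 library per genotype no difference could be tested, no p-value is given, and bracketed 95% intervals cover counting error only. Klrd1, which encodes CD94, was present in the mixed barcodes of both libraries, at 99.9 CPM in WT and 74.2 CPM in CD94-KO, where CPM are counts scaled to the same UMI total. Since the position of the altered part of the gene was not given, 3′ counts do not check the genotype.

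Mixed barcodes made up 3.30% [2.71 to 3.98] of the kept WT barcodes and 1.94% [1.56 to 2.39] of the kept CD94-KO barcodes. Of the barcodes that met the Cd3 sum, 18.1% [15.1 to 21.4] of WT and 17.0% [13.8 to 20.6] of CD94-KO were mixed. Of those that met the C1q sum, 19.2% [15.97 to 22.7] and 9.58% [7.73 to 11.7] were mixed, and with 1 library each this says nothing of the genotypes. C1q-positive barcodes were 17.2% of the kept WT and 20.3% of the kept CD94-KO barcodes. The number of mixed barcodes was 1.05 times the product of the Cd3 and C1q shares in WT and 0.839 times in CD94-KO. This product takes no account of depth, on which the share depended. No mixed barcode had under 5000 UMIs in either library. Between 5000 and 10000 UMIs 0.436% of WT and 0.353% of CD94-KO barcodes were mixed, and at 40000 UMIs or more 21.2% and 22.4% were.

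The rule genes are described only. C1qa, C1qb and C1qc lie side by side on mouse chromosome 4 (GRCm38, minus strand, C1qb from 136880129 to C1qa at 136898803). Cd3g, Cd3d and Cd3e lie together on chromosome 9 (GRCm38, from 44969572 to 45009627). The C1q sum of mixed barcodes had a median of 39 UMIs in WT, from 5 to 529, and of 36.5 in CD94-KO, from 7 to 412. The Cd3 sum had a median of 11 UMIs in both libraries, with a highest value of 69 in WT and 50 in CD94-KO. Just inside the C1q limit, at 5 to 9 UMIs, lay 10 WT barcodes with a median of 160 UMIs of pan-macrophage genes, and just outside it, at 2 to 4 UMIs, lay 74 with a median of 12. In CD94-KO the 5 barcodes just inside had a median of 183 and the 41 just outside of 12. Around the Cd3 limit, the 16 WT barcodes at 3 to 5 Cd3 UMIs had a median of 12.5 UMIs of pan-T genes and the 75 at 1 to 2 had 1. The 18 CD94-KO barcodes just inside that limit had 20 and the 67 just outside 0. The barcodes on either side of each limit were thus far apart in other genes of the lineage, but they also differed in depth. Around the C1q limit median UMIs were 21409 inside and 9536 outside in WT, and 18694 and 6911 in CD94-KO. Around the Cd3 limit they were 19987 and 12172 in WT, and 19322 and 12854 in CD94-KO.

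The label names 6 genes, of which Cd3e, C1qa and C1qb belong to the rule. C1qb had a UMI in 100% of mixed barcodes of both libraries, and Cd3e in 80.2% of WT and 80.2% of CD94-KO. Ctla4, an inhibitory receptor of activated and regulatory T cells, had one in 71.7% of WT and 55.8% of CD94-KO mixed barcodes. Foxp3, the lineage factor of regulatory T cells (Tregs), had one in 29.2% and 19.8%. Pf4, a platelet chemokine also made by some macrophages, had one in 49.1% and 39.5%. The rule chose on Cd3e, C1qa and C1qb, so only Ctla4, Foxp3 and Pf4 bear on the label, and Foxp3 and Pf4 were seen in under 50% of the barcodes at this depth.

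Both lineages were present well beyond the rule genes. A pan-T sum was taken over 20 T cell genes outside the rule, among them Cd2, Icos, Thy1 and Lck, and a pan-macrophage sum over 20 macrophage genes, among them Lyz2, Cd14, Apoe and Csf1r. In WT the pan-T sum of mixed barcodes ran from 1 to 175 UMIs with a median of 37, against a median of 27 in singly positive T barcodes and 0 in singly positive macrophage barcodes. In CD94-KO it ran from 2 to 86 with a median of 32, against 21 and 0. The pan-macrophage sum of WT mixed barcodes ran from 22 to 1294 with a median of 296, against 171 in macrophage and 10 in T barcodes. In CD94-KO it ran from 34 to 1197 with a median of 265, against 169.5 and 7. Mixed barcodes thus held a T part at least as large as that of a T barcode and a macrophage part larger than that of a macrophage barcode, by medians. These sums follow from the choice of barcodes in part, since the rule asks for genes of the same lineages.

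Of the WT mixed barcodes, 99 of 106 (93.4% [86.9 to 97.3]) lay above the 5th percentile of T barcodes in pan-T UMIs and above that of macrophage barcodes in pan-macrophage UMIs. In CD94-KO 76 of 86 (88.4% [79.7 to 94.3]) did. The sums of the T and macrophage genes were nearly unrelated across mixed barcodes, with Pearson's r of 0.173 over 106 WT barcodes and 0.151 over 86 CD94-KO barcodes on the log2(UMIs + 1) scale. These r values are descriptions, and the barcodes share library and depth.

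**Figure D1:**
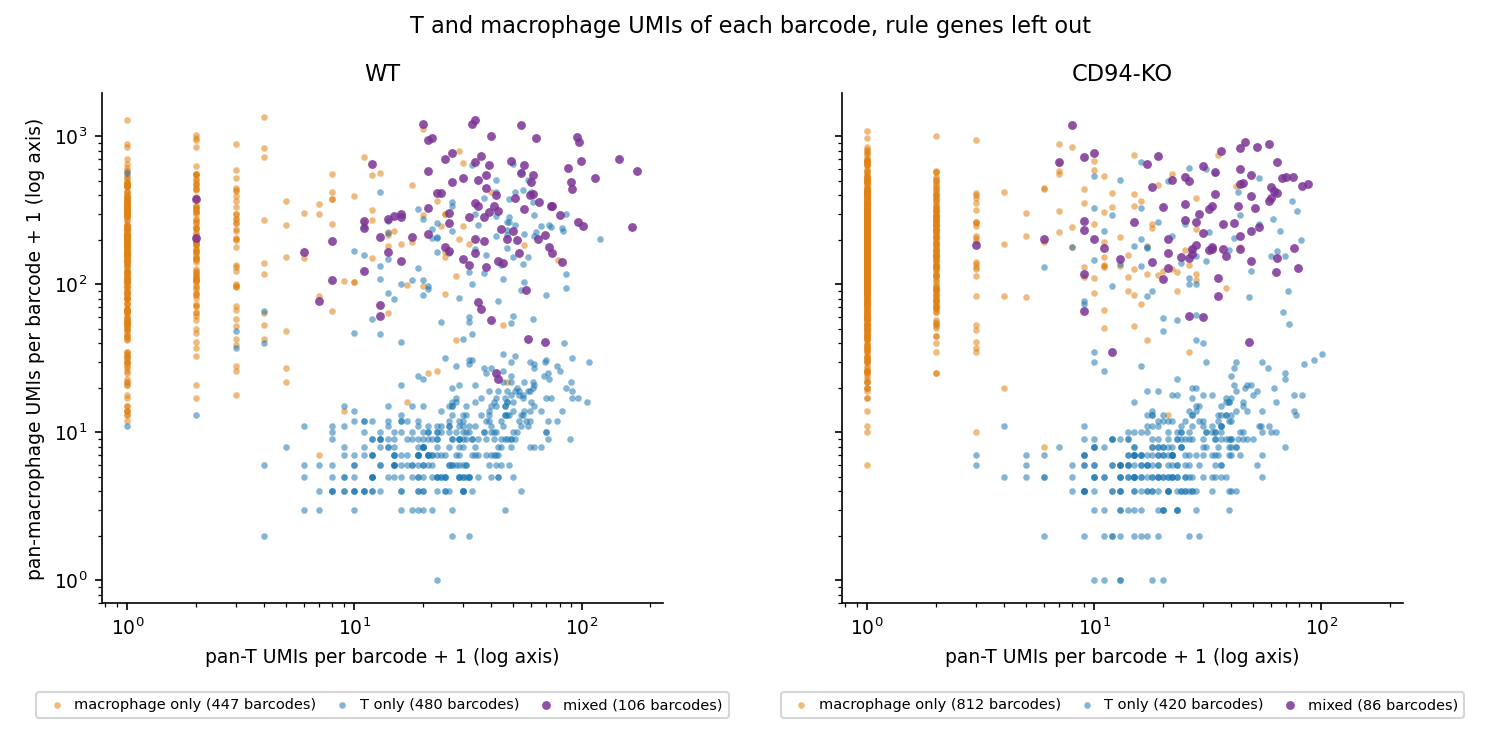
Each point is a barcode, placed by its UMIs of 20 pan-T genes (x axis, log scale) and of 20 pan-macrophage genes (y axis, log scale), both with 1 added, for WT (left) and CD94-KO (right). Mixed barcodes (purple) lie at the upper right, with medians of 37 and 296 UMIs in WT and of 32 and 265 in CD94-KO, and some singly positive T barcodes (blue) lie among them.

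The threshold on C1q did not separate all barcodes with macrophage RNA. Of the singly positive T barcodes, 124 of 480 in WT (25.8% [22.0 to 30.0]) and 61 of 420 in CD94-KO (14.5% [11.3 to 18.3]) had more pan-macrophage UMIs than the 5th percentile of macrophage barcodes. Of the singly positive macrophage barcodes, 46 of 447 (10.3%) and 53 of 812 (6.53%) had more pan-T UMIs than the 5th percentile of T barcodes. The expected pairs hold these barcodes too. In an alternative, T barcodes with 20 or more pan-macrophage UMIs and macrophage barcodes with 3 or more pan-T UMIs were left out. For some results below, not for all that changed, that value is given as the one with clean single barcodes.

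Mixed barcodes were as deep as a sum of 2 barcodes or deeper. In WT they held from 6924 to 99437 UMIs with a median of 27018, against a median of 7713 in T barcodes, 12033 in macrophage barcodes and 22735 over all pairs. In CD94-KO they held from 8200 to 77672 with a median of 25494, against 6740, 11186 and 19666. Mean UMIs were 1.27 times the expected pair in both libraries. The depth of 59.4% of WT and 64.0% of CD94-KO mixed barcodes lay above the pair median, and that of 13.2% and 16.3% above the 95th percentile of pairs. They also held more genes, with a median of 4775.5 in WT and 4406 in CD94-KO, where pairs had medians of 4224 and 3977. Mitochondrial RNA was a median of 2.001% and 1.66% of their UMIs, beside 1.89% and 1.53% in T barcodes and 1.81% and 1.39% in macrophage barcodes.

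RNA of a further lineage was seen in many mixed barcodes. Other lineages were gated by at least 3 UMIs over 3 marker genes each (5 UMIs for fibroblasts). Of the mixed barcodes, 53 of 106 in WT (50%) and 35 of 86 in CD94-KO (40.7%) fell into at least 1 other gate, and 13 and 10 into at least 2. The gate of natural killer (NK) genes, Ncr1, Klrb1c and Klre1, held 30.2% [21.7 to 39.9] of WT and 23.3% [14.8 to 33.6] of CD94-KO mixed barcodes, where 21.6% and 22.0% of pairs reached it. The neutrophil gate (Csf3r, Cxcr2 and Retnlg) held 16.04% and 18.6%, against 5.54% and 5.95% of pairs. Csf3r, a growth factor receptor that macrophages also transcribe, was at 30.7 CPM in WT and 37.1 CPM in CD94-KO mixed barcodes. The other neutrophil genes did not follow the gate. Of the neutrophil list 0 of 3 tested WT members were beyond 1.5-fold of the pair, while in CD94-KO 0 of 4 were above and 3 below, with a median log2 ratio of -1.96. S100a8 was at 1.17 times the pair in WT and 0.307 times in CD94-KO, S100a9 at 0.925 and 0.0847 times, and Mmp9, a secreted protease, at 0.214 times in CD94-KO. Single barcodes weigh on these ratios. The neutrophil list had a median of 1 UMI per mixed barcode in both libraries, while the highest macrophage barcode held 355 in WT and 290 in CD94-KO. The gate of mature regulatory dendritic cells (Ccr7, Fscn1 and Cacnb3) held 17.0% and 10.5%, against 13.3% and 7.69% of pairs. No mixed barcode of either library reached the B cell gate, where pairs reached it in 1.70% and 1.47%. A count of 0 leaves room for up to 3.42% of WT and 4.199% of CD94-KO mixed barcodes by the exact interval.

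Mixed barcodes in no other gate were closer in depth to pairs in no other gate than all mixed barcodes were to all pairs. The 53 WT mixed barcodes in no other gate had a median of 20037 UMIs, beside 19749 over the 135228 pairs whose summed UMIs reached no gate, and a mean 1.04 times that of those pairs. The 53 in another gate had a median of 36235, beside 29093 over pairs in a gate. In CD94-KO the 51 in no other gate had a median of 19979 UMIs, beside 17570 over the 228054 pairs in no gate, and a mean 1.18 times theirs, and the 35 in another gate had a median of 33252, beside 24906. The gates rest on UMI sums, so a deeper barcode reaches them more easily. Leaving out gated barcodes therefore leaves out deep ones, and in the state shares and gene ratios below they were left out of the mixed barcodes and of the pairs alike. In the mixed barcodes in no other gate the mean pan-T sum was 0.964 times that of all T barcodes, gated ones included, in WT and 1.17 times in CD94-KO. The mean pan-macrophage sum there was 1.28 and 1.43 times that of all macrophage barcodes, where all mixed barcodes had 1.74 and 1.66 times.

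**Figure D2:**
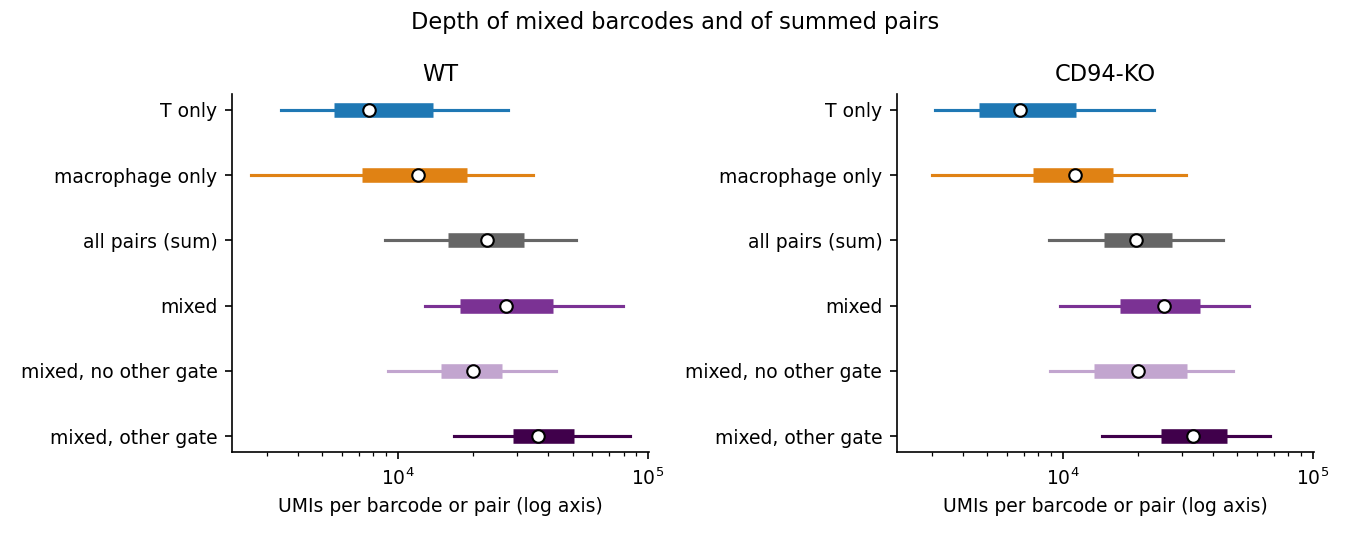
UMIs per barcode, or per sum of a T and a macrophage barcode, on a log axis, with the median (white point), the middle 50% (thick bar) and the 5th to 95th percentile (thin line) for WT (left) and CD94-KO (right). The mixed barcodes in no other gate (medians 20037 and 19979) lie near all pairs (22735 and 19666), and those in another gate lie higher (36235 and 33252). Pairs in no other gate, the closer comparison, are not drawn and had medians of 19749 and 17570.

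Barcodes gated on other lineages met the C1q sum in shares that differed by gate. Fibroblast-gated barcodes, which should lack C1q, had medians of 51944 and 42665 UMIs, and 1 of 104 in WT (0.962% [0.0243 to 5.24]) and 0 of 57 in CD94-KO (interval up to 6.27%) met the C1q sum. T barcodes met it in 18.1% and 17.0% at medians of 9514.5 and 7895.5 UMIs. NK-gated barcodes met it in 13.8% [10.8 to 17.2] and 10.5% [8.14 to 13.2], at 10175.5 and 7974 UMIs. Barcodes of the mature regulatory dendritic gate met it in 11.01% and 8.11%, but 73 of the 318 WT and 36 of the 333 CD94-KO barcodes in that gate were also fibroblast-gated. Plasmacytoid dendritic barcodes met it in 10.6% [4.37 to 20.6] of WT and 2.04% [0.0517 to 10.9] of CD94-KO, and mast or basophil barcodes in 0 of 5 and 0 of 24. The part of free RNA in these shares was not tested. These gates did not leave out barcodes with Cd3. NK and C1q genes were found together in 66 WT and 63 CD94-KO barcodes, of which 32 and 20 were the mixed barcodes themselves. The count of barcodes with NK and C1q genes, these included, was 0.798 times the product of their shares in WT and 0.516 times in CD94-KO. For T and C1q it was 1.05 and 0.839 times.

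**Figure D3:**
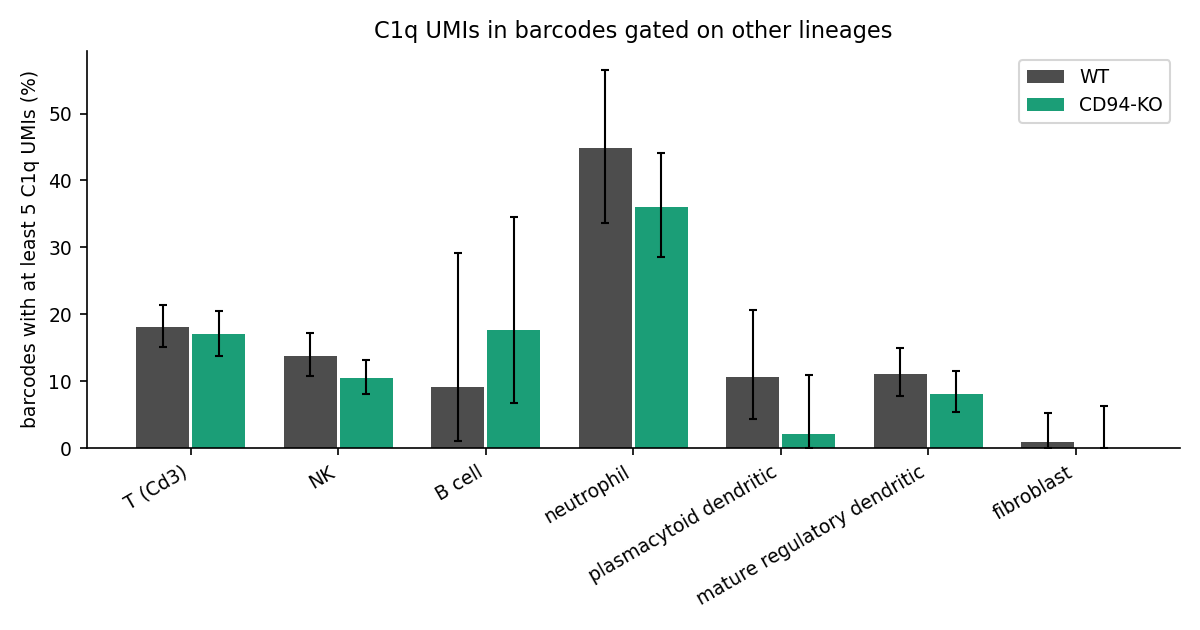
Share of barcodes with at least 5 C1q UMIs (y axis, percent) among barcodes gated on each lineage (x axis) in WT (grey) and CD94-KO (green), with exact 95% intervals for counting error. T and NK barcodes reach 18.1% and 13.8% in WT, while fibroblast-gated barcodes reach 0.962%. The gates overlap, and 32 of the 66 WT NK barcodes with C1q were mixed barcodes.

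On the T cell side, Foxp3 was more frequent in mixed barcodes than in pairs in both libraries. In WT 31 of 106 mixed barcodes had a Foxp3 UMI (29.2% [20.8 to 38.9]), against 18.3% of T barcodes and 19.4% of pairs. In CD94-KO 17 of 86 had (19.8% [11.96 to 29.8]), against 11.7% and 12.4%, and there the interval takes in the pair value. Macrophage barcodes, which should lack Foxp3, had a UMI in 1.34% and 0.862%. Turned around, 26.1% [18.4 to 34.9] of WT barcodes with Cd3 and Foxp3 were mixed, against 16.1% [12.8 to 19.7] of Cd3-positive barcodes without Foxp3, and in CD94-KO 25.8% [15.8 to 38.01] against 15.7% [12.4 to 19.4]. Thinning every barcode and every pair to 2000 UMIs left 7.74% against 5.25% of pairs in WT and 4.70% against 3.10% in CD94-KO, close to the level of a single UMI. In no other gate 32.1% of WT mixed barcodes and 21.03% of pairs held Foxp3, and in CD94-KO 13.7% and 12.8%.

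Foxp3 RNA itself stood at 41.1 CPM in WT mixed barcodes, 1.61 times the 25.5 CPM of the expected pair, and at 26.8 CPM in CD94-KO, 1.56 times the 17.2 CPM expected. The 10 barcodes with the most Foxp3 held 63.4% of its UMIs in WT and 81.5% in CD94-KO. With the stricter limits of 6 Cd3 and 20 C1q UMIs the ratio in CD94-KO was near 1, at a log2 value of 0.02 over 48 barcodes. When T barcodes were weighted to hold the same share with Foxp3 as the mixed barcodes, the log2 ratio was 0.042 in WT and -0.087 in CD94-KO, as that weighting is built to give.

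The T helper co-receptor Cd4 and the cytotoxic co-receptor genes Cd8a and Cd8b1 were also seen in more mixed barcodes than pairs. A Cd4 UMI was found in 41.5% [32.0 to 51.5] of WT and 37.2% [27.0 to 48.3] of CD94-KO mixed barcodes, against 33.9% and 23.8% of pairs. At least 2 UMIs of Cd8a and Cd8b1 were found in 27.4% [19.1 to 36.9] and 19.8% [11.96 to 29.8], against 18.5% and 13.8% of pairs. After thinning, Cd4 was left in 9.05% of WT mixed barcodes against 8.35% of pairs, and in 8.48% against 5.55% in CD94-KO. Per UMI, Cd4 was at 40.8 against 45.3 CPM expected in WT and at 42.9 against 29.5 CPM in CD94-KO. Cd8a was below the pair per UMI in both libraries. It was at 40.3 CPM in WT mixed barcodes where 51.4 CPM were expected, and at 33.8 CPM in CD94-KO where 38.01 CPM were expected. In no other gate the log2 ratio of Cd8a was -1.40 in WT and 0.51 in CD94-KO. The WT Cd8 difference of 8.88 percentage points turned to -1.73 after thinning and to -1.99 in no other gate. The CD94-KO difference of 5.94 points turned to -0.643 after thinning, with 2.93% of mixed barcodes against 3.57% of pairs, and to -2.505 among mixed barcodes without NK gene UMIs, while in no other gate it was 7.71. WT mixed barcodes held Foxp3 and Cd8 genes together in 4 of 106 cases, and CD94-KO ones in 0 of 86, where T barcodes did so in 2 of 480 and 0 of 420. Cd4 and Cd8 genes were found together in 8 of 106 and 1 of 86 mixed barcodes and in 4 of 480 and 3 of 420 T barcodes. These joint counts were not set against pairs. The T barcodes were shallower, with medians of 7713 and 6740 UMIs against 27018 and 25494 in mixed barcodes.

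T cells with genes of the interleukin-17 programme were the T state that mixed barcodes held less often than pairs. A UMI of Il17a, Il17f, Cd163l1 or Il23r was found in 11.3% [5.99 to 18.9] of WT mixed barcodes, against 16.04% of T barcodes and 17.4% of pairs. In CD94-KO it was found in 18.6% [11.02 to 28.4], against 31.7% and 32.8%, and the interval lies below both. Of CD94-KO barcodes with Cd3 and one of these genes 10.7% [6.26 to 16.9] were mixed, against 19.6% [15.6 to 24.1] of the others. Among CD94-KO mixed barcodes without any NK gene UMI the share was 28.3% of 53, a difference from pairs of -4.46 percentage points where all mixed barcodes had -14.2. In no other gate 17.0% of WT mixed barcodes and 20.6% of pairs held one of these genes, and in CD94-KO 21.6% and 40.3%.

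**Figure D4:**
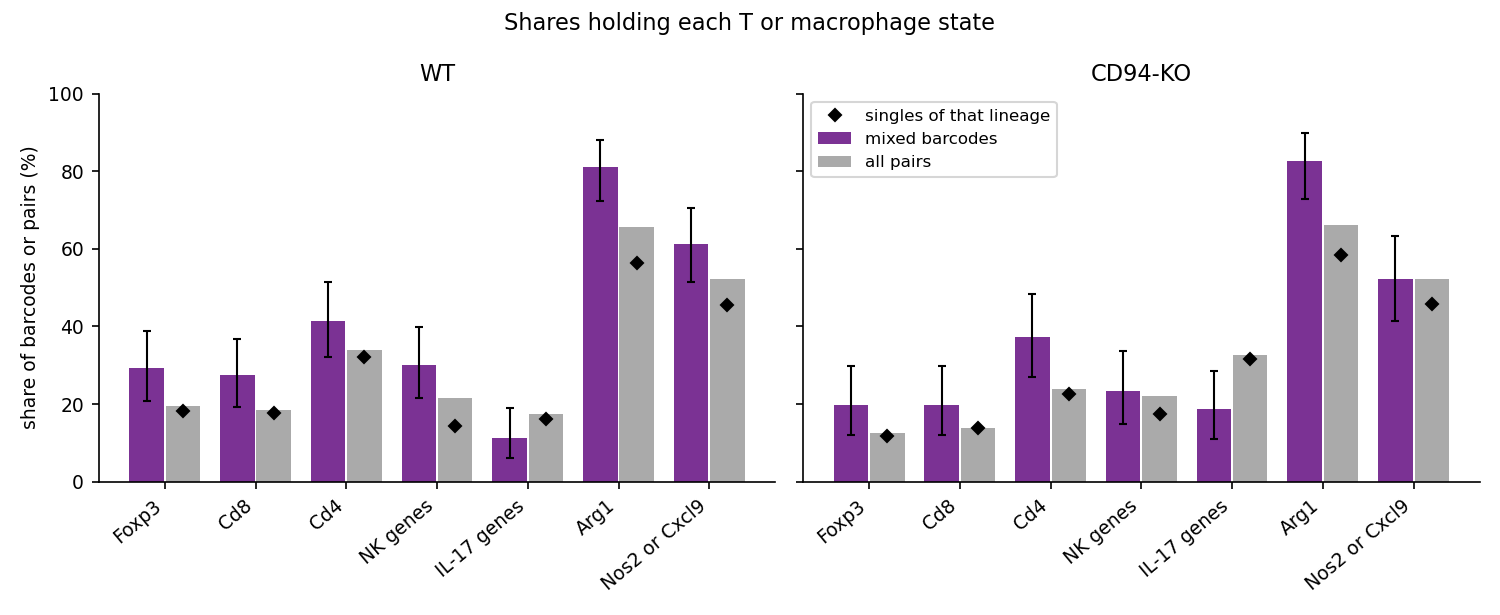
Share (y axis, percent) of mixed barcodes (purple bars, with exact 95% intervals for counting error) and of all pairs (grey bars) that hold each T cell or macrophage state, in WT (left) and CD94-KO (right), with diamonds for singly positive barcodes of the same lineage. Arg1 is held by 81.1% and 82.6% of mixed barcodes against 65.7% and 66.1% of pairs, and IL-17 genes by 11.3% and 18.6% against 17.4% and 32.8%.

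On the macrophage side, mixed barcodes held Arg1 more often than pairs. Arg1 encodes arginase 1, an arginine-degrading enzyme of suppressive tumour macrophages. At least 3 Arg1 UMIs were found in 86 of 106 WT mixed barcodes (81.1% [72.4 to 88.1]), against 56.4% of macrophage barcodes and 65.7% of pairs, and in 71 of 86 CD94-KO ones (82.6% [72.9 to 89.9]), against 58.5% and 66.1%. Both intervals lie above the pair value. Of C1q-positive barcodes with Arg1, 25.4% [20.9 to 30.4] were mixed in WT and 13% [10.3 to 16.1] in CD94-KO, against 9.30% [5.78 to 14.0] and 4.26% [2.40 to 6.93] of those without. After thinning to 2000 UMIs the shares were 43.5% of mixed barcodes against 30.8% of pairs in WT and 54.7% against 37.8% in CD94-KO, so the direction held at equal depth. The level was less far apart, at 1654 CPM against 1375 expected in WT and 2621 against 2011 in CD94-KO, a ratio of 1.20 and 1.30. Per 1000 pan-macrophage UMIs, WT mixed barcodes held 140 Arg1 UMIs and macrophage barcodes 132, a ratio of 1.06. In CD94-KO they held 211 and 168, a ratio of 1.25. Arg1 was thus present in more of the mixed barcodes while its summed level stayed within 1.5-fold of the pair.

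The inflammatory state, at least 3 UMIs of Nos2 (nitric oxide synthase) and Cxcl9 (a chemokine for T cells), was found in 61.3% [51.4 to 70.6] of WT and 52.3% [41.3 to 63.2] of CD94-KO mixed barcodes, where pairs had 52.2% and 52.3%. Cxcl9 was at 777 CPM against 790 expected in WT and at 864 against 854 in CD94-KO. Nos2 was at 33.0 against 56.7 CPM in WT and at 88.6 against 141 CPM in CD94-KO, 0.582 and 0.628 times the pair. Summed over all mixed barcodes Cxcl9 was thus close to the pair and Nos2 below it. In no other gate the log2 ratio of Cxcl9 was 0.72 in WT and 0.22 in CD94-KO, and that of Nos2 -0.68 and -0.54. Arg1 together with the inflammatory genes was the most frequent state, in 50.9% of WT and 45.3% of CD94-KO mixed barcodes against 37.7% and 36.9% of pairs. Arg1 alone was found in 30.2% and 37.2%, the inflammatory genes alone in 10.4% and 6.98%, and neither in 8.49% and 10.5%, where pairs had 19.9% and 18.5%.

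The T and macrophage states were combined in WT much as the product of their frequencies gives. Foxp3 met the state with both Arg1 and inflammatory genes in 16 WT barcodes, where the product gave 15.8, and Arg1 alone in 10, where it gave 9.36. Cd8 met both in 15, where 14.8 were given, and Arg1 alone in 12, where 8.75 were. In CD94-KO Foxp3 met both in 11, where the product gave 7.71, and Arg1 alone in 3, where it gave 6.33. Cd4 met both in 22, where 14.5 were given, and Cd8 met both in 4, where 7.71 were. These counts are small, and which neighbours differ beyond counting error was not tested.

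Gene by gene, most of the transcriptome of mixed barcodes lay near the expected pair. Of 2783 genes with at least 50 CPM in both libraries, 2736 (98.3%) were within 1.5-fold of the pair in both. Among all genes with at least 20 UMIs, observed or expected, 303 of 8579 in WT (3.53%) were at least 1.5-fold above the pair and 155 (1.81%) at least 1.5-fold below, with a median log2 ratio of 0.08. In CD94-KO 220 of 7671 (2.87%) were above and 197 (2.57%) below, with a median of 0.05. These shares are the background for the gene lists that follow. The pan-T list had 0 of 17 WT members beyond 1.5-fold, and 1 of 17 CD94-KO members above, which was Themis. The pan-macrophage list had 0 of 20 WT members beyond it, and 4 of 19 CD94-KO members above, which were Ms4a7, Lgmn, Pf4 and Cx3cr1. Its median log2 ratio was 0.24 in WT and 0.31 in CD94-KO, and that of the pan-T list 0.07 and 0.06.

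Treg genes were the T cell list with members above the pair in both libraries. In WT 5 of 14 were above and 0 below, with a list median of 0.47, and in CD94-KO 4 of 14 were above and 2 below, with 0.26. Foxp3, Lrrc32 and Klrg1 were above in both, Ikzf2 and Ikzf4 in WT and Izumo1r in CD94-KO. Lrrc32, which anchors latent TGF-beta on Tregs, was at 15.3 CPM against 9.90 expected in WT and 10.7 against 6.10 in CD94-KO. Klrg1, a lectin receptor of effector T and NK cells and of some Tregs, was at 45.8 against 25.6 CPM and at 25.6 against 15.2 CPM. Ctla4 was at 161 against 113 CPM in WT and 129 against 97.0 CPM in CD94-KO, 1.42 and 1.33 times the pair, and 0.956 times it in CD94-KO with the stricter limits. Ikzf2, which encodes the Treg factor Helios, was 1.60 times the pair in WT and 1.06 times in CD94-KO. The receptor gene Il2ra was at 1.48 times the pair in WT but at 0.729 times in CD94-KO, where it ranged from 0.566 to 0.831 times over all settings. Members shared with other activated T cells were near the pair: Tnfrsf4 at 1.02 and 1.23 times, Tnfrsf18 at 1.02 and 1.10 times. Below the pair in CD94-KO were Il1rl1 and Areg, and Areg, a growth factor, was at 0.704 times the pair in WT and 0.602 times in CD94-KO.

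Genes of interleukin-17 producing T cells had the lowest median of the T cell lists in both libraries. All 3 tested WT members and all 4 tested CD94-KO members of the 9-gene list were at least 1.5-fold below the pair, with medians of -1.43 and -2.45. They were Il17a, Cd163l1 and Blk in both libraries and Il1r1 in CD94-KO. Il17a itself was at 4.63 CPM against 23.5 expected in WT, from 16 UMIs in 3.77% of the barcodes, and at 10.7 against 59.2 CPM in CD94-KO, from 26 UMIs in 10.5%. Cd163l1, a scavenger receptor gene of these cells, was at 10.4 against 28.1 CPM and at 11.9 against 64.6 CPM. In no other gate the log2 ratio of Il17a was -1.41 in WT and -2.60 in CD94-KO, and that of Cd163l1 was -0.55 in WT, short of 1.5-fold, and -2.23 in CD94-KO.

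Cytotoxic and effector genes also lay mostly low. Of the CD8 and cytotoxic list 1 of 12 WT members was above (Eomes) and 2 below (Cxcr6 and Ifng), with a median of -0.33. In CD94-KO 0 of 12 were above and 5 below (Prf1, Nkg7, Cst7, Ctsw and Ifng), with -0.57. Ifng, the interferon of activated T and NK cells, was at 45.5 CPM against 121 expected in WT and at 41.2 against 68.0 CPM in CD94-KO. With clean single barcodes the Ifng ratio in WT was 0.725, short of 1.5-fold. With single barcodes at exactly 0 UMIs of the other sum its ratio in CD94-KO was 1.10, the reverse direction. Xcl1, a chemokine for dendritic cells from NK and CD8 T cells, was at 0.459 and 0.478 times the pair. Cxcr6, a homing receptor of resident T cells, was at 0.552 and 0.668 times. Gzmc, a granzyme of activated killer cells, was at 0.581 and 0.344 times the pair, but 10 barcodes held 94.5% and 93.4% of its UMIs, and with clean single barcodes the WT ratio was 2.06. Gzmb was at 1.18 times the pair in WT and 0.681 times in CD94-KO. NK genes differed in direction between the libraries: 3 of 12 WT members were above (Klra4, Klra7 and Klri2) and 0 below, and 0 of 11 CD94-KO members were above and 4 below (Ncr1, Klra3, Klra7 and Txk). Among them Klrk1, which encodes the activating receptor NKG2D, was at 0.773 and 0.717 times the pair, and Klrd1 at 0.747 and 0.876 times.

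The CD3 genes of the rule were lower per UMI than in the pair, whose T barcodes passed the same threshold. Cd3g was at 204 CPM against 341 expected in WT and at 198 against 326 CPM in CD94-KO, Cd3d at 0.806 and 0.813 times and Cd3e at 0.839 and 0.941 times. The C1q genes lay within 0.958 to 1.13 times. These values are a description, since the rule chose on them.

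Macrophage genes lay on both sides of the pair. The list of tissue-resident-like macrophage genes had 5 of 8 WT members above (Folr2, F13a1, Cbr2, Sepp1 and Ccl8) and 0 below, with a median of 0.86. In CD94-KO 3 of 7 members were above (Cbr2, Stab1 and Pf4) and 1 below (Ccl8), with 0.40. Its members had unlike values in the libraries: F13a1, a coagulation factor made by macrophages, was at 1.96 times the pair in WT and 1.17 times in CD94-KO, Sepp1, a selenium transport protein, at 1.68 and 1.05 times, and Ccl8, a chemokine, at 1.97 and 0.498 times. Mrc1, the mannose receptor, was at 1.24 and 1.32 times, log2 values of 0.30 and 0.40. It is also in the pan-macrophage list, as are Pf4, Lgmn, Ms4a7 and Apoe. That list as a whole had median log2 ratios of 0.24 in WT and 0.31 in CD94-KO. Pf4 was at 237 CPM against 172 expected in WT and at 351 against 188 CPM in CD94-KO, with 76.9% and 81.0% of its UMIs in 10 barcodes. Lgmn, a lysosomal protease, was at 1.32 and 1.53 times the pair and was found in 95.3% of the mixed barcodes of each library. Ms4a7, a macrophage membrane protein, was at 1.31 and 1.87 times, Apoe, a lipid carrier, at 1.28 and 1.33 times, and Hmox1, which breaks down heme, at 1.58 and 1.31 times. Glul, which makes glutamine, was at 1.43 and 1.45 times. Among genes with at least 50 CPM in both libraries, Oasl1, an interferon-induced gene, ranked first above the pair by its smaller ratio, at 2.62 times in WT and 1.54 times in CD94-KO. In no other gate its log2 ratio was 2.004 in WT and -0.24 in CD94-KO. Of the other genes among the 12 furthest above in both libraries, Xylt1, Ccl24, Rbm47, Lpin2 and Fbxo33 lay between 1.31 and 1.51 times the pair, with Ccl24, an eosinophil chemokine of macrophages, at 1.33 and 1.40 times. Of the 12 furthest below, Mgl2, a lectin of macrophages and dendritic cells, was at 0.710 and 0.675 times, Lars2, a mitochondrial leucine tRNA synthetase, at 0.630 and 0.586 times, Hist1h4d, a histone gene, at 0.651 and 0.519 times, Fdps, an enzyme of sterol synthesis, at 0.691 and 0.686 times, and Avpi1 at 0.712 and 0.599 times.

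Other macrophage programmes were close to the pair. Of the lipid-handling list 0 of 8 members in WT and 0 of 8 in CD94-KO were beyond 1.5-fold in either direction, and of the monocyte list 0 of 9 and 0 of 9. Of 14 genes of antigen presentation by MHC class II and of costimulation 0 in WT and 2 in CD94-KO (Ciita and Icosl) were above and 0 below. Cd74 stood at 5631 against 5678 CPM in WT and 6604 against 6578 CPM in CD94-KO. Of genes for the uptake of dying cells 0 of 11 WT members were beyond 1.5-fold, and in CD94-KO 1 of 10 was above (Stab1) and 1 below (Mfge8), with list medians of 0.24 and 0.25. The pan-macrophage list had medians of 0.24 and 0.31. Lrp1, an uptake receptor, was at 1.14 and 1.24 times the pair and Axl, a receptor tyrosine kinase that binds dying cells, at 1.07 and 1.13 times. Of the inflammatory list Nos2 was the only member beyond 1.5-fold, below the pair in both libraries, among 11 tested in WT and 10 in CD94-KO. Cxcl10, a chemokine for T cells, was at 0.668 times the pair in WT, just short of 1.5-fold, and 0.931 times in CD94-KO. The cytokine gene Il1b was at 0.918 and 0.863 times, and Gbp2, an interferon-induced GTPase, at 1.23 and 0.821 times. Of the cell cycle list 0 of 14 WT members were above and 6 below, and 0 of 9 CD94-KO members above and 2 below (Mcm5 and Stmn1), while Mki67 was at 0.996 and 1.27 times.

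**Figure D5:**
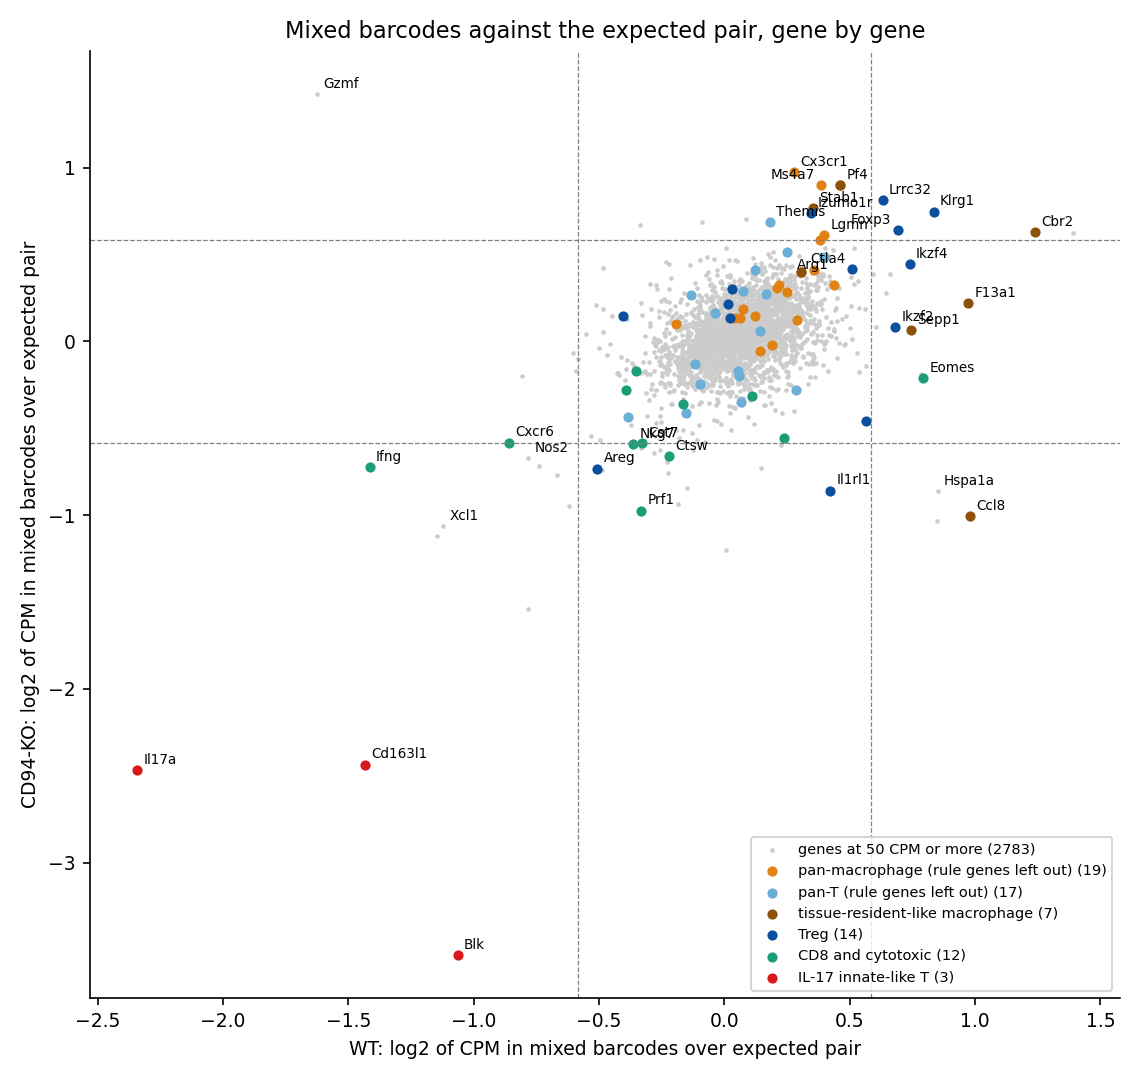
Log2 ratio of CPM in mixed barcodes over the expected pair in WT (x axis) and CD94-KO (y axis), for genes with at least 50 CPM in both libraries (grey) and for the tested members of 6 lists (colours), with dashed lines at 1.5-fold. Il17a lies lowest on the x axis at -2.34 in WT (-2.47 in CD94-KO), and Foxp3 lies past the lines at 0.69 and 0.64.

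RNA of B cells, red cells and fibroblasts was low in mixed barcodes. B cell genes gave a mean of 0.0943 UMIs per mixed barcode in WT and 0.116 in CD94-KO, against 0.372 and 0.282 in the expected pair, and Ms4a1 was at 0 in both libraries. Red cell genes were at 0 UMIs in mixed barcodes and pairs alike. Fibroblast genes gave 0.830 and 0.0814 UMIs, against 2.23 and 0.150. Their medians were 0 in mixed barcodes and pairs of both libraries. The WT means rest largely on single barcodes, with 62 UMIs in a mixed barcode and 893 in a T barcode. NK genes gave a median of 7 and 4 UMIs per mixed barcode, beside 5 and 5 over pairs, with highest values of 327 and 208. Gm42418 and AY036118, which overlap ribosomal RNA sequence, were at 0.732 and 0.452 times the pair in WT and 0.627 and 0.460 times in CD94-KO. The part of each of these in the results above was not tested.

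Between the libraries, some lists differed in mixed barcodes as in the expected pairs and others did not. In CD94-KO 280 of 8572 genes (3.27%) were at least 1.5-fold above WT and 634 (7.4%) at least 1.5-fold below. Of 14 Treg genes 0 were above and 6 below, with a median log2 difference of -0.51 in mixed barcodes and of -0.51 in pairs. Of 10 alternative and suppressive macrophage genes 4 were above (Arg1, Retnla, Mrc1 and Il10) and 0 below, with 0.38 in mixed barcodes and 0.36 in pairs. Of 5 mature regulatory dendritic genes 0 were above and 4 below (Ccr7, Fscn1, Cacnb3 and Ccl22), with -1.05 in mixed barcodes and 0.45 in pairs, and the gate of those cells held 17.0% of WT and 10.5% of CD94-KO mixed barcodes. Of 12 NK genes 0 were above and 5 below (Klra3, Klra4, Klra7, Klri2 and Txk), with -0.42 in mixed barcodes and 0.16 in pairs. Of 3 neutrophil genes 0 were above and 2 below (S100a8 and S100a9), with -2.17 and -0.10. The neutrophil and mature regulatory dendritic lists had medians of 1 and 0.5 UMIs per WT mixed barcode, and of 1 and 0 in CD94-KO. Their highest values were 142 and 134 in WT and 14 and 44 in CD94-KO, so single barcodes weigh on both differences. Of 8 genes of naive and memory T cells 2 were above (S1pr1 and Il7r) and 1 below (Ccr7), with -0.13 and 0.12, and of 12 immediate early and heat shock genes 0 were above and 2 below (Hspa1a and Hspa1b), with -0.061 and 0.15. Il2ra, the interleukin-2 receptor chain of Tregs, was at 105 CPM in WT and 61.0 in CD94-KO mixed barcodes, while the pairs had 70.8 and 83.7 CPM. Ccl3 and Ccl4, chemokines of activated macrophages and killer cells, were at 0.716 and 0.702 times the pair in WT and 1.34 and 1.16 times in CD94-KO. These opposite directions were not kept throughout: with clean single barcodes WT Ccl3 was at 1.06 times, and in no other gate CD94-KO Ccl3 had a log2 ratio of -0.10 and Ccl4 of -0.22. Pdpn, a membrane glycoprotein, was at 0.939 times in WT and 1.61 times in CD94-KO. Mt2, a metallothionein, was at 0.792 and 1.59 times, Ccl1, a chemokine, at 0.715 and 0.165 times with all UMIs in 10 barcodes of each library, and Ccr7, a homing receptor of naive T cells and mature dendritic cells, at 1.004 and 0.435 times. Each value describes this pair of libraries only.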

How the data were processed

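The deposited values are raw counts of UMIs per gene and barcode, which the file headers credit to Cell Ranger 5.0.0. Barcodes that were not called as cells had been removed by the authors, per the labels' protocols, and the sort used anti-CD45 and 7AAD. The submitters' processing notes name mm10 and Seurat 4.0. The annotation release is not known here. T cell receptor segments were not used here.

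Members and lists were chosen with earlier results of these data known. The expected pair was the exact mean over all pairs of singly positive barcodes, with no random draw. Totals ranged from 40261366 to 46107433 UMIs. Genes with at least 20 UMIs, observed or expected, were compared as CPM and counted from 1.5-fold. Shares carry exact Clopper-Pearson intervals at 95%. No doublet was removed and no caller was run, because the pair sums take that place. Thinning to 2000 UMIs used exact expectations, leaving out 11 T and 15 macrophage barcodes in WT, 7 and 18 in CD94-KO, and 0 mixed ones. Genes named were taken from the rule, label, state and Klrd1 genes, the 12 furthest above and below the pair in both libraries at 50 CPM or more, the 5 that differed most each way between libraries, and up to 4 per list by UMIs. Other list members past 1.5-fold were named after their values were seen. The calculation recovered known changes in simulated pairs, which were more in number than the mixed barcodes here. Those changes were larger than 1.5-fold and lay in genes with far more than 20 UMIs. Recovery of changes near these 2 limits was thus not checked. Python 3.11.15, NumPy 2.4.6, SciPy 1.17.1 and pandas 2.3.3 were used.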

Additional observations from a re-analysis of the deposited data

Results flagged for a closer look

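Gzmf, a granzyme gene of activated killer cells, moved in opposite directions from the expected pair in the libraries, at 0.324 times in WT and 2.69 times in CD94-KO, a log2 difference of 3.05 that was not tested. It had a UMI in 5.66% and 5.81% of mixed barcodes, and 10 barcodes held 100% of its UMIs in each library. The heat shock gene Hspa1b was at 1.80 times the pair in WT and 0.489 times in CD94-KO, a log2 difference of -1.88, and its neighbour Hspa1a at 1.80 and 0.550 times, a log2 difference of -1.71. Neither difference was tested. The 10 barcodes with the most UMIs held 74.4% and 75.4% of those of Hspa1b. Hspa1a and Hspa1b are near-identical copies, so their split is uncertain.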

How the results depend on the processing

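No paired analysis was possible because there was 1 library per genotype and no replicate number. Leaving out a replicate was not possible for the same reason. Under 12 alternatives 1117 of 1205 values of named genes kept their direction, and 108 of 120 differences in state shares did. The gene tally includes settings that changed only the UMI filter. Such a filter leaves the ratio of each gene as it was, so these settings could not turn a direction. The removal of shared barcodes took out no mixed barcode and could change the ratios little. The tally of genes therefore overstates how often a direction held where it could have turned. Clean single barcodes, mixed barcodes in no other gate, set against all pairs or against pairs in no other gate, and the removal of shared barcodes were chosen after seeing the data. The stricter limits gave mixed shares of 2.02% in WT and 1.08% in CD94-KO, the looser ones 4.204% in WT, and a minimum of 500 UMIs 2.31% in WT.

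The pan-T ratio to T barcodes was 1.56 in WT and 1.54 in CD94-KO with the stricter limits, 1.57 and 1.498 with clean single barcodes, 0.964 and 1.17 in no other gate, and 1.52 by medians in CD94-KO. The pan-macrophage ratio was 2.08 and 1.91 with the stricter limits, 1.81 and 1.70 with clean single barcodes, 1.28 and 1.43 in no other gate, and 1.68 and 1.63 with single barcodes of 2000 UMIs or more. In CD94-KO it was 1.56 by medians and 1.69 with single barcodes at exactly 0. Total UMIs over the pair were 1.19 and 1.30 by medians, 1.44 and 1.39 with the stricter limits, 1.34 and 1.31 with single barcodes at exactly 0, 1.24 and 1.24 with those of 2000 UMIs or more, 1.58 and 1.46 with clean ones, 0.882 and 1.04 in no other gate against all pairs, and 1.04 and 1.18 against pairs in no other gate.

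Differences in share from pairs, in percentage points, turned for WT Cd8 to -1.73 after thinning and to -3.38 and -1.99 in no other gate against all pairs and against pairs in no other gate. They turned for CD94-KO Cd8 to -0.643 and for WT NK genes from 8.60 to -0.189 after thinning, and for CD94-KO Cd8 to -2.505 without NK gene UMIs. With clean single barcodes they were 19.9 for WT NK genes and 23.6 for WT Arg1. Without NK gene UMIs they were 25.3 for CD94-KO Cd4 and -4.46 for CD94-KO IL-17 genes.

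A filter of 100 UMIs left 29 genes above and 21 below the pair in WT and 21 and 31 in CD94-KO. With no filter above 1 UMI there were 895 and 1003 in WT and 831 and 1201 in CD94-KO. With clean single barcodes 491 WT genes were above, in no other gate 252 WT genes were below the mean of all pairs, and with the stricter limits 102 WT and 109 CD94-KO genes were below.

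Among log2 ratios past 1.5-fold, those that reversed in WT were Gzmc to 1.04 and Gzmf to 0.14 with clean single barcodes, and Gzmf to 0.23 against pairs in no other gate. In CD94-KO they reversed to 0.13 for Ifng with single barcodes at exactly 0, to -0.087 for Foxp3 with T barcodes reweighted by Foxp3, to -1.68 for Gzmf and -0.011 for Mt2 under 40000 UMIs, and for Oasl1 to -0.17 in no other gate and -0.24 against pairs in no other gate. Ratios under 1.5-fold also changed sides. Among them in WT were Ccr7 from 0.0061 to -3.14 and Cxcl9 from -0.025 to 0.74 in no other gate against all pairs. Ccr7 is itself a gate gene, so leaving gated barcodes out of the mixed ones alone lowers it by design. With clean single barcodes WT Klrb1c changed from -0.038 to 0.999 and WT Klre1 from -0.11 to 0.53. In CD94-KO Cd8a changed from -0.17 to 0.22 with the stricter limits and to 0.51 against pairs in no other gate. The causes of the other changes were not tested.

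Depth limits the states, since a state rests on 1 to 3 UMIs and T barcodes had medians of 7713 and 6740 UMIs.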

Other observations

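Among barcodes below the limits of 1000 UMIs or at or above 10% mitochondrial UMIs, 0 of 2147 in WT and 0 of 744 in CD94-KO met both the Cd3 and the C1q sum, which allows shares of up to 0.172% and 0.495% by the exact interval. Of these barcodes 1618 and 496 had under 1000 UMIs, and no kept barcode under 5000 UMIs was mixed. At such depth both sums are seldom met, so the intervals say little of these barcodes. Further genes at least 1.5-fold from the pair in both libraries, named after their values were seen, were Cbr2, a carbonyl reductase, at 2.36 and 1.55 times, Cd160, a receptor of cytotoxic lymphocytes, at 0.568 and 0.449 times, and Tnfsf8, a ligand of activated T cells, at 0.487 and 0.378 times. Il10, an anti-inflammatory cytokine, was at 1.23 times the pair in WT and 2.82 times in CD94-KO, and Retnla, a gene of alternative macrophage activation, at 0.245 and 1.35 times. These differences between the libraries were not tested.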
